A study of Mus musculus with 6 samples.

Results

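The post-squalene enzymes of cholesterol synthesis were examined in mouse liver RNA, as the 9 genes Sqle, Lss, Cyp51, Msmo1, Nsdhl, Hsd17b7, Ebp, Sc5d and Dhcr7. They were chosen by name from their place in the pathway, and each symbol matched 1 Ensembl gene identifier among the 41388 of the deposited count table. All 9 passed the filter on low counts, which left 15939 genes to test. Treatment was given to fibrotic BALB/c mice as AL/NP, nanogels carrying the bisphosphonate alendronate, described in the labels as the high AL/NP treatment (n = 3 libraries). Injections of 4 mg/kg alendronate were made 2 times per week in the last 2 weeks of a 5-week course of carbon tetrachloride (CCl4), a liver toxin that causes fibrosis. The treated mice were set against BALB/c mice with the same CCl4 course, labelled as untreated fibrotic controls (n = 3 libraries). No healthy liver and no empty nanogel is among these samples, so drug, carrier and injections cannot be told apart. Age and sex are not in the labels, nor is it said that each library is 1 animal; the p-values measure the spread between these libraries, which may be technical.

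Cholesterol is made from acetyl-CoA in a long chain of reactions in the cytosol and the endoplasmic reticulum, and the liver is one of its main sites. The mevalonate pathway ends in squalene; the post-squalene enzymes then add oxygen, close the rings to lanosterol, strip methyl groups off and move or reduce double bonds until cholesterol is left. Transcription of most of these genes is known to be driven by SREBP-2, a membrane-bound factor that is released when sterols run low, with NF-Y and Sp1 as frequent partners on the same promoters. Alendronate is an inhibitor of farnesyl diphosphate synthase, the product of Fdps, which lies upstream of squalene.

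Upstream sequences were compared because SREBP targets usually carry SRE-like, CCAAT and GC-box letters near their start. RefSeq promoter windows (GRCm38.p6, 250 bases before to 50 bases after a start) were found for 8 of the 9 members, with 3 starts for Dhcr7; Sqle had none. CCAAT was present in a window of all 8 matched members on either strand, and in 37.4% of all 32851 windows. GGGCGG, the GC box, was also present in all 8, against 35.7% of all windows. The strict SRE-like run TCACNCCAC was in 0 of the 8, where 1.24% of all windows hold it. The looser run TCACNNCA, chosen after the sequences had been seen, was in 6 of the 8 (Cyp51, Msmo1, Hsd17b7, Nsdhl, Sc5d and Dhcr7), against 13.8% of all windows. CACGTG, the E-box, was in 3 (Hsd17b7, Sc5d and Dhcr7), against 7.15%. Of the 9 genes before squalene, 6 had windows. Among those 6, the looser SRE-like run was in 2, the strict run in 1, CCAAT in 5, the GC box in 5 and the E-box in 0. The counts are descriptions of letters; no binding was measured, and the Dhcr7 windows give that gene more chances of a match.

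The 250 bases before the start are printed 5′ to 3′ on the gene's own strand for Cyp51 (chr5:4104698-4104947, minus strand) and Msmo1 (chr8:64733579-64733828, minus strand), the members with the largest fold changes, for Hsd17b7 (chr1:169969206-169969455, minus strand), a member with a smaller one, and for Sc5d (chr9:42264301-42264550, minus strand), the member with a negative one. Capitals mark matches to the looser SRE-like run, the CCAAT box, the GC box and the E-box named above, on either strand, including any that overlap. The capitals that close the Sc5d sequence are the first part of a GC box that begins at -3 and runs past the printed bases.
Cyp51: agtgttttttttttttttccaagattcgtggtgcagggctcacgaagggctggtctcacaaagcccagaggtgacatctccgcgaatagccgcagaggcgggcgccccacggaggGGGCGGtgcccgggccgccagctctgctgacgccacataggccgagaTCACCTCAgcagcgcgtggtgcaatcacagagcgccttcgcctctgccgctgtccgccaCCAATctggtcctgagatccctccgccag
Msmo1: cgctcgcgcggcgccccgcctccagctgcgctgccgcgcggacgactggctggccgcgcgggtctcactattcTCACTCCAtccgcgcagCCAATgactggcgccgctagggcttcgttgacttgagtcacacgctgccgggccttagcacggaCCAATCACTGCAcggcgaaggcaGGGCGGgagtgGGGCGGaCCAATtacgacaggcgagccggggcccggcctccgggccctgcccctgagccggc
Hsd17b7: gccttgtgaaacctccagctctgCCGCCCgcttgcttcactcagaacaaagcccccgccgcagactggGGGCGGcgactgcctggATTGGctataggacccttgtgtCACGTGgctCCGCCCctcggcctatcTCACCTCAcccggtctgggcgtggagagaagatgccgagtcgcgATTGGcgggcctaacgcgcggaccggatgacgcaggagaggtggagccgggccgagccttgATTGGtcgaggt
Sc5d: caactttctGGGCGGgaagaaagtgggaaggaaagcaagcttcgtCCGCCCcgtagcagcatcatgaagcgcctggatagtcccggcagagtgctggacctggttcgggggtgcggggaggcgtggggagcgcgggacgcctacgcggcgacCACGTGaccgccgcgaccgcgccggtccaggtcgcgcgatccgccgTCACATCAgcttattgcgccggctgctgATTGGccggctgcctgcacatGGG
The Cyp51 and Hsd17b7 sequences hold the same letters, TCACCTCA, with the first base at -88 in Cyp51 and -117 in Hsd17b7, counted from the start. Msmo1 holds TCACTCCA at -177 and TCACTGCA at -92, which shares its first base with the end of a CCAAT. Sc5d holds TCACATCA at -52. The looser run was in Cyp51, Msmo1, Nsdhl and Hsd17b7, at log2 fold changes from 0.838 to 1.68. It was also in Dhcr7 (0.151) and in Sc5d (-0.593, or 0.188 without control replicate 3). The windows of Lss (0.381) and Ebp (0.118) did not hold it. A relation between these letters and the fold changes was not tested.

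Library totals ranged from 30554483 to 39838428 counts, and each member had at least 477 counts in every library. Control replicate 3 stood apart: it had the lowest scaling factor, 0.809, against 0.937 to 1.13 in the other 5, and 26.7% of its counts came from mitochondrially encoded genes, against 11.96% to 19.8%. The part of these in the results was not tested; values without that library are given where it weighed on a member.

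With AL/NP, the genes of the oxidases that attack the sterol methyl groups rose, while the genes of the late double-bond steps overlapped between the groups. That overlap depended on control replicate 3 for Ebp and Dhcr7. Without that library, 7 members, both of these among them, were higher at an unadjusted p under 0.05 in edgeR. Of all genes tested there, 3022 of 16204 passed in either direction. A difference between the steps was not tested. With all libraries, Cyp51 (3.20-fold) and Msmo1 (3.03-fold) rose and were called, that is, had an adjusted p under 0.05 in edgeR's quasi-likelihood test. The other 7 members were not called, with fold changes between 0.663 and 1.91. Both calls lay close to the threshold and were lost when any 1 library was left out, at adjusted p from 0.0629 to 0.194, with log2 fold changes of at least 1.48. The same rule called 0.0816% of all tested genes, 0.0627% as higher and 0.0188% as lower. Levels are given as CPM, counts scaled to a common library size with TMM factors. At an unadjusted p under 0.05, 5 of the 9 members were higher and 0 lower, where 19.6% of all tested genes passed, 9.37% higher and 10.3% lower. The groups did not overlap in 4 members, all higher with AL/NP; of all tested genes, 14.5% were higher and 15.0% lower without overlap, 29.5% in all. DESeq2 called 4 members, all higher, against 5.48% of all tested genes, 2.75% higher and 2.72% lower. The median log2 fold change was 0.617 over the 9 members and -0.000249 over all tested genes. The members were chosen with earlier results of these data known, so these counts describe them and do not test them as a set.

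**Figure D1:**
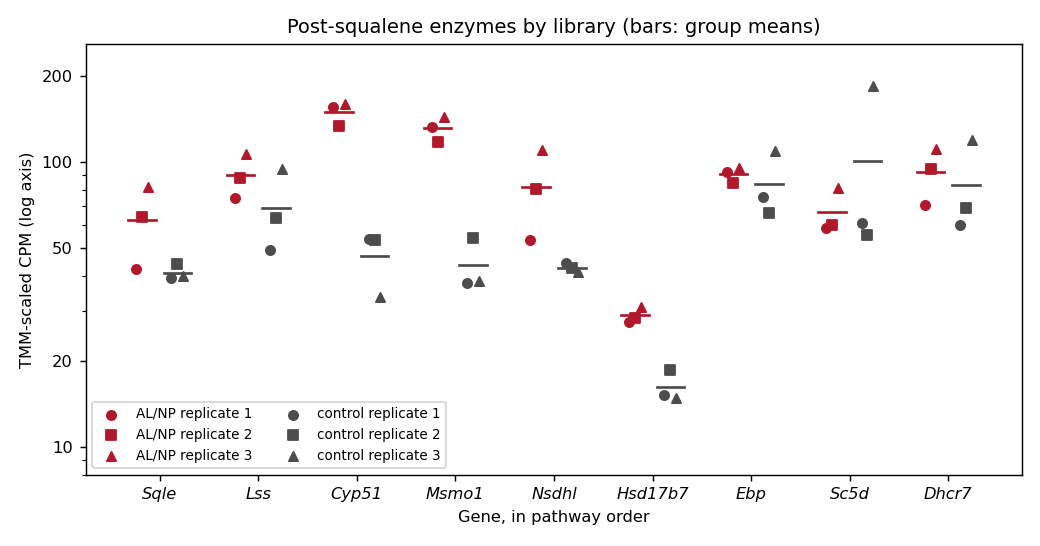
TMM-scaled CPM (log axis) of the 9 post-squalene genes in each AL/NP library (red, left of each pair) and control library (grey), with horizontal bars for group means. Every AL/NP library lies above every control for Cyp51, Msmo1, Nsdhl and Hsd17b7; control replicate 3 (grey triangle) is the highest library for Ebp, Sc5d and Dhcr7.

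The chain opens with Sqle and Lss; gene coordinates are those of GRCm38, and all 9 members are protein-coding. Sqle (ENSMUSG00000022351, chromosome 15, 59315077 to 59331192) encodes squalene epoxidase, a rate-controlling oxygen-adding step. It measured 42.3, 64.3 and 81.6 CPM in AL/NP replicates 1 to 3, against 39.2, 43.9 and 39.8 CPM in control replicates 1 to 3. The groups overlapped, because AL/NP replicate 1 lay below control replicate 2, while the other AL/NP libraries lay above all controls. The log2 fold change of Sqle was 0.617 (SE 0.226, adjusted p = 0.201, edgeR). Its AL/NP libraries varied more than its controls, with a coefficient of variation of 31.3% with AL/NP and 6.24% in controls. Without AL/NP replicate 1 the log2 fold change was 0.834 and without AL/NP replicate 3 it was 0.382, neither called.

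Lss (ENSMUSG00000033105, chromosome 10, 76531588 to 76557138) encodes lanosterol synthase, which folds the epoxide into the sterol rings. It measured 75.0, 88.2 and 106.7 CPM with AL/NP, against 49.3, 63.5 and 94.5 CPM in controls. Control replicate 3 lay above AL/NP replicates 1 and 2, so the groups overlapped. For Lss, a log2 fold change of 0.381 was found (SE 0.248, adjusted p = 0.401, edgeR), and its 95% interval ran from 0.882-fold to 1.92-fold. Without control replicate 3 it was 0.671 (adjusted p = 0.159).

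Cyp51 (ENSMUSG00000001467, chromosome 5, 4081145 to 4104746) encodes the cytochrome P450 that takes the first methyl group off lanosterol. It measured 156, 134 and 160.2 CPM with AL/NP, against 53.7, 53.5 and 33.7 CPM in controls. The groups lay well apart: the lowest AL/NP library was 2.5 times the highest control. The group means were 150.1 ± 14.1 CPM in AL/NP livers and 46.9 ± 11.5 CPM in controls (SD, n = 3 each). The log2 fold change was 1.68 (SE 0.209, 95% interval 1.20 to 2.15, adjusted p = 0.0493, edgeR). Akap9 lies on the opposite strand with 166 exon bases in common, and the strand setting of the counting is not given in the sources used here; Akap9 had 21.6 counts per 100 of Cyp51 over all libraries.

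Removal of the remaining methyl pair takes 3 enzymes working in turn. Msmo1 (ENSMUSG00000031604, chromosome 8, 64718139 to 64733792), the methyl sterol oxidase that starts each round, measured 133, 118 and 144 CPM with AL/NP, against 37.6, 54.4 and 38.4 CPM in controls. The lowest AL/NP library was 2.16 times the highest control. For Msmo1, a log2 fold change of 1.60 was found (SE 0.189, 95% interval 1.17 to 2.03, adjusted p = 0.0493, edgeR). Transcripts of 59 other genes share a stretch of up to 203 bases with Msmo1 at 95% identity or more, a short part of its 6144 bases of merged exons.

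Nsdhl (ENSMUSG00000031349, chromosome X, 72918557 to 72958514) encodes the dehydrogenase that removes the oxidised methyl group as carbon dioxide. It measured 53.2, 80.8 and 110.8 CPM with AL/NP, against 44.4, 42.4 and 41.2 CPM in controls. The groups did not overlap, but the AL/NP libraries were spread widely (coefficient of variation 35.3%) and the controls closely (3.86%). The log2 fold change of Nsdhl was 0.935 (SE 0.244, adjusted p = 0.137, edgeR); DESeq2 called it, at an adjusted p of 0.0134. AL/NP replicate 3 weighed on the value, which was 0.651 without that library and 1.17 without AL/NP replicate 1.

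Hsd17b7 (ENSMUSG00000026675, chromosome 1, 169949535 to 169969241) encodes the keto-steroid reductase that closes the round. It measured 27.5, 28.5 and 31.1 CPM with AL/NP, against 15.3, 18.6 and 14.8 CPM in controls. Both groups were narrow and did not overlap, with the lowest AL/NP library at 1.48 times the highest control. For Hsd17b7, a log2 fold change of 0.838 was found (SE 0.147, 95% interval 0.504 to 1.17), the smallest SE among the 9 members; it was not called by edgeR (adjusted p = 0.0850) and was called by DESeq2 (adjusted p = 7.06e-04). The 3 members of this round thus all had intervals above 0, from 1.3-fold upward for Nsdhl, 1.42-fold for Hsd17b7 and 2.25-fold for Msmo1.

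The last steps shift and reduce double bonds. Ebp (ENSMUSG00000031168, chromosome X, 8185329 to 8193512), the sterol isomerase also known as emopamil binding protein, measured 92.7, 84.5 and 95.5 CPM with AL/NP, against 75.7, 66.4 and 109.3 CPM in controls. The AL/NP libraries lay inside the range of the controls. For Ebp, a log2 fold change of 0.118 was found (SE 0.200, adjusted p = 0.765, edgeR), with an interval from 0.792-fold to 1.49-fold, so a rise as large as that of Cyp51 or Msmo1 lay outside it. The sign changed to -0.0342 without control replicate 2, and the value was 0.353 (adjusted p = 0.218) without control replicate 3.

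Sc5d (ENSMUSG00000032018, chromosome 9, 42251595 to 42264256), the sterol desaturase, measured 58.9, 60.2 and 81.3 CPM with AL/NP, against 61.4, 55.6 and 185.3 CPM in controls. A single library, control replicate 3, stood far above the other 5, which lay between 55.6 and 81.3 CPM. The log2 fold change of Sc5d was -0.593 (SE 0.443, adjusted p = 0.466, edgeR) with all libraries and 0.188 (adjusted p = 0.572) without control replicate 3, so this library set its sign.

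Dhcr7 (ENSMUSG00000058454, chromosome 7, 143823145 to 143848410), whose product reduces the double bond of 7-dehydrocholesterol, the precursor of vitamin D, measured 70.6, 94.6 and 111.4 CPM with AL/NP, against 60.3, 69.2 and 119.6 CPM in controls. Control replicate 3 was again the highest library. For Dhcr7, a log2 fold change of 0.151 was found (SE 0.277, adjusted p = 0.786, edgeR), with an interval from 0.718-fold to 1.72-fold. It was 0.506 (adjusted p = 0.245) without control replicate 3, -0.0335 without control replicate 1 and -0.00738 without AL/NP replicate 3. Transcripts of 25 other genes share up to 227 bases with Dhcr7 at 95% identity or more.

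Summed over all 9 members, the level was 709.9, 752.7 and 922.3 CPM in AL/NP replicates 1 to 3, against 436.9, 467.4 and 676.5 CPM in control replicates 1 to 3. Every AL/NP library exceeded every control, by a narrow margin over control replicate 3. The make-up of that sum differed: Cyp51 and Msmo1 together held 40.8%, 33.4% and 33.0% of it with AL/NP, against 20.9%, 23.1% and 10.6% in controls. Ebp, Sc5d and Dhcr7 together held 31.3%, 31.8% and 31.2% with AL/NP, against 45.2%, 40.9% and 61.2% in controls. These shares are of counts and follow transcript length as well as number.

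**Figure D2:**
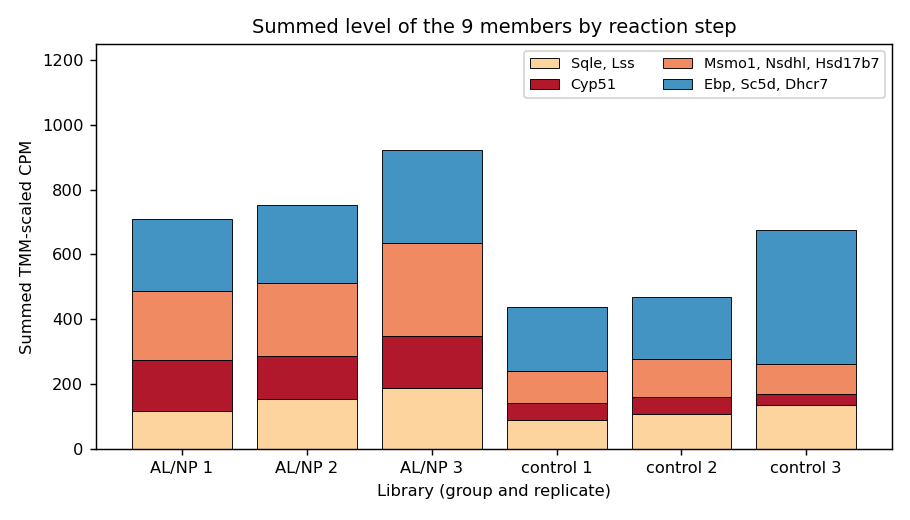
Stacked bars of the summed TMM-scaled CPM of the 9 members in each library, AL/NP left of control, split into Sqle and Lss, Cyp51, the 3 genes of the later methyl removal, and the 3 genes of the double-bond steps. The top block is largest in control replicate 3, at 414 CPM, against 191 and 197 CPM in the other controls and 222 to 288 CPM with AL/NP.

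Per kilobase of merged exons, which allows genes to be set side by side, Ebp was the most abundant member in both groups, at 39.4 ± 2.46 CPM per kilobase with AL/NP and 36.3 ± 9.78 in controls (SD, n = 3 each). With AL/NP, Cyp51 came next at 34.0 ± 3.20, then Nsdhl at 28.6 ± 10.1 and Msmo1 at 21.4 ± 2.15 CPM per kilobase; the ranges of Cyp51 and Nsdhl overlapped, as did those of Nsdhl and Msmo1. In controls, the second place was held by Sc5d at 20.7 ± 15.1, and Cyp51 was the fifth at 10.6 ± 2.6 CPM per kilobase. The ranges of all neighbours in the control order overlapped except those of Lss and Hsd17b7. Hsd17b7 was the lowest member in both groups, at 5.69 ± 0.372 with AL/NP and 3.18 ± 0.403 CPM per kilobase in controls. Merged exons count every annotated exon, used or not, and Lss has the longest at 10787 bases, which lowers its value.

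AL/NP replicate 3 was the highest of the AL/NP libraries in all 9 members, where 39.1% of all tested genes have their AL/NP maximum there. AL/NP replicate 1 was the lowest of its group in 6 members (44.1% of all tested genes), and AL/NP replicate 2 in Cyp51, Msmo1 and Ebp. Control replicate 3 divided the members: it was the highest control in 4 members and the lowest in 3 (42.8% of all tested genes in each direction). It was the highest of all 6 libraries in Ebp, Sc5d and Dhcr7, and the lowest of all 6 in Cyp51, Nsdhl and Hsd17b7. Of all tested genes, 28.2% were highest and 29.1% lowest in that library, so extremes there are common.

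**Figure D3:**
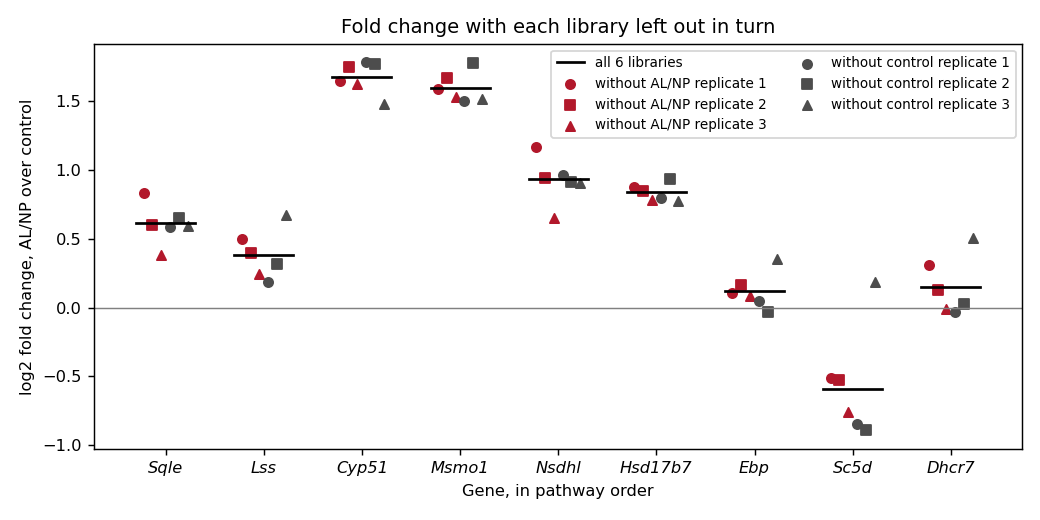
Log2 fold change of AL/NP over control for each member with all 6 libraries (black bar) and with each library left out in turn (red, an AL/NP library; grey, a control). Cyp51, Msmo1, Nsdhl, Hsd17b7, Sqle and Lss stay above 0 throughout, whereas Ebp, Sc5d and Dhcr7 each cross 0 in at least 1 of the fits.

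Values were also small for the sterol reductases that follow Cyp51, neither called by edgeR or DESeq2: Tm7sf2 had a log2 fold change of 0.314 (SE 0.160) and Lbr 0.182 (SE 0.160), with adjusted p of 0.2999 and 0.533. The Tm7sf2 groups did not overlap, at 44.4 to 52.1 CPM with AL/NP against 31.5 to 42.3 CPM in controls. Of all tested genes, 14.5% were higher without overlap. The Lbr groups overlapped. Tm7sf2 shares 532 exon bases with Vps51 on the same strand, so its counts are uncertain.

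The 9 genes that lead up to squalene gave a median log2 fold change of 0.803, against 0.617 for the post-squalene members; 1 was called by edgeR, 7 were higher and 0 lower at an unadjusted p under 0.05, and DESeq2 called 5, all higher. The called gene was Idi1, the isomerase of isopentenyl diphosphate, at 1.79 (SE 0.224, adjusted p = 0.0493, edgeR). This call too was lost when any 1 library was left out, at log2 fold changes of 1.597 to 1.91 (adjusted p from 0.0629 to 0.194), and with library totals in place of TMM (adjusted p = 0.113), a stricter filter of 50 counts (0.0553) or no robust estimation (0.0513). Mvk, mevalonate kinase, was at 1.06 (SE 0.195, adjusted p = 0.0909). Fdps, the gene of the enzyme that alendronate inhibits, was at 1.11 (SE 0.212, adjusted p = 0.0954). Values for Hmgcs1, Pmvk, Mvd and Fdft1 lay between 0.746 and 0.821, with adjusted p from 0.121 to 0.189. Fdft1, squalene synthase, shares 774 exon bases with Ctsb on the opposite strand, which had 869 counts per 100 of Fdft1.

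Acat2, the thiolase that starts the chain, had a log2 fold change of -5.08e-04 (SE 0.213) and an interval of 0.715-fold to 1.40-fold. AL/NP replicate 3 was the highest of its group in all 9 genes of this list too. A difference between the genes before and after squalene was not tested.

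**Figure D4:**
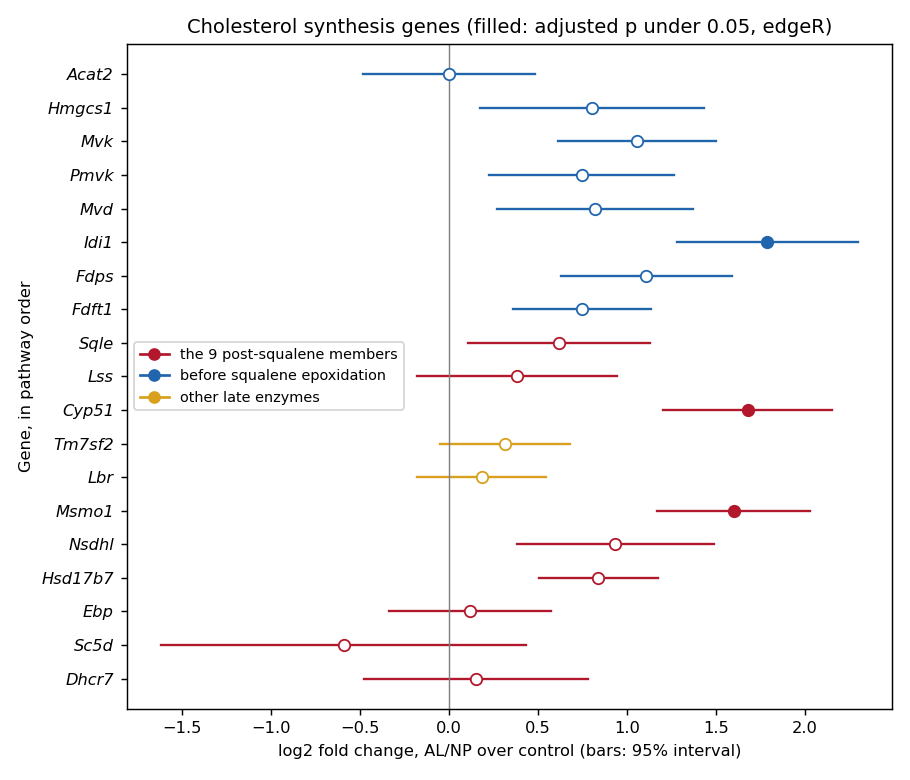
Log2 fold change of AL/NP over control with its 95% interval for genes in pathway order, from acetyl-CoA (top) to cholesterol (bottom); filled points have an adjusted p under 0.05. Idi1, Cyp51 and Msmo1 are filled, and the intervals of Acat2, Lss, Tm7sf2, Lbr, Ebp, Sc5d and Dhcr7 include 0.

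**Figure D5:**
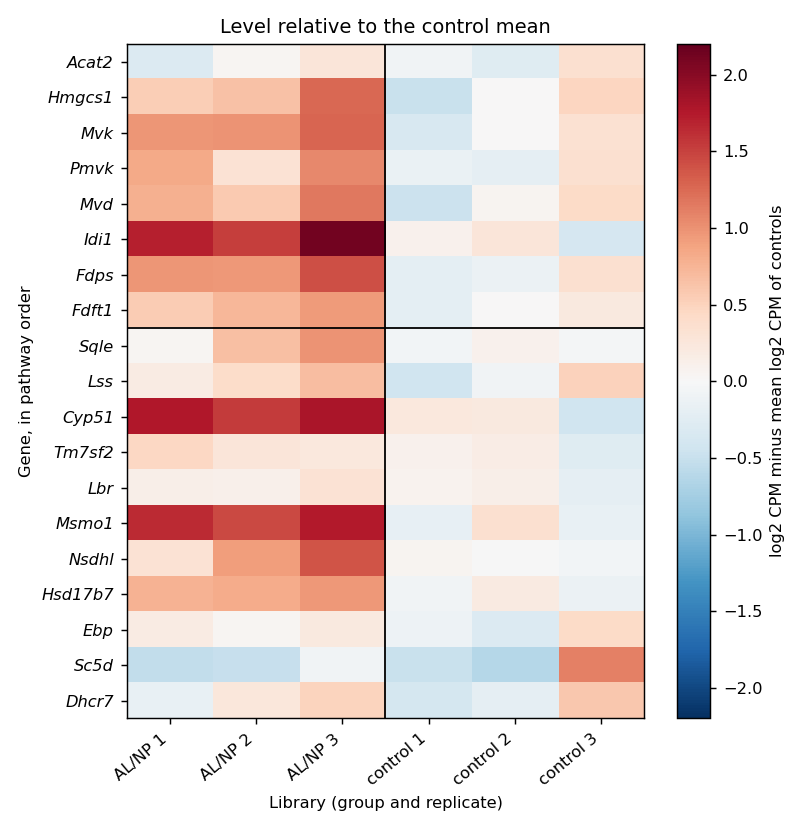
Heat map of log2 CPM minus the mean log2 CPM of the controls for the same genes (rows; the line separates genes up to squalene from those after) in each AL/NP library (left) and control library (right). Red marks a higher and blue a lower level; the strongest red in a control is Sc5d in control replicate 3.

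Regulators and partners of the pathway gave no edgeR call among 15 SREBP and sterol-handling genes. At an unadjusted p under 0.05, 2 passed, both higher, and DESeq2 called 1. These genes did not move together: 7 had log2 fold changes above 0 and 8 below. Their median was -0.0830, with a range from -1.08 to 0.797. The groups did not overlap in 5 higher genes and 1 lower gene, against 14.5% and 15.0% of all tested genes. Srebf2, the gene of SREBP-2, averaged 54.5 ± 2.73 CPM in AL/NP livers and 38.6 ± 2.58 CPM in controls (SD, n = 3 each). Its groups did not overlap, with a log2 fold change of 0.498 (SE 0.134, adjusted p = 0.144 in edgeR and 0.0379 in DESeq2). Abcg1, a sterol exporter, was at 0.797 (SE 0.297, adjusted p = 0.204). Among 14 accessory genes edgeR called 0 (2 higher and 2 lower at an unadjusted p under 0.05) and DESeq2 called 2. Por, the reductase that passes electrons to Sqle and Cyp51, averaged 176.9 ± 11.2 CPM in AL/NP livers and 124 ± 9.93 CPM in controls, and Cyb5a, the cytochrome b that serves Msmo1 and Sc5d, averaged 425 ± 62.3 CPM in AL/NP livers and 710.3 ± 28.3 CPM in controls. The log2 fold change was 0.512 (SE 0.146) for Por, with an adjusted p of 0.147 in edgeR and 0.0390 in DESeq2. For Cyb5a it was -0.741 (SE 0.172), with an adjusted p of 0.121 in edgeR and 0.00243 in DESeq2.

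Of 8 genes of the isoprenoid branches, which use farnesyl diphosphate for other products, edgeR and DESeq2 called 0, with 1 lower at an unadjusted p under 0.05. Pdss1, a subunit of the enzyme that builds the ubiquinone side chain, was at -0.549 (SE 0.190, adjusted p = 0.188), and Dhdds, of dolichol synthesis, at 0.372 (SE 0.182, adjusted p = 0.287). Of 11 fatty acid synthesis genes, the other main set of SREBP targets, both tools again called 0, with 1 lower at an unadjusted p under 0.05; the median log2 fold change was -0.448. Scd1, the stearoyl-CoA desaturase, averaged 486 ± 150.3 CPM in AL/NP livers and 820 ± 134 CPM in controls, and the groups did not overlap (log2 fold change -0.753, SE 0.246, adjusted p = 0.177). Thrsp, a lipogenesis-linked gene, was at -1.62 (SE 0.719, adjusted p = 0.265), with 233.6 CPM in control replicate 3 against 47.3 and 37.1 CPM in the other controls.

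The tissue held the markers of liver. The 10 hepatocyte markers summed to between 71152 and 82040 CPM in AL/NP libraries and between 75806 and 99560 CPM in controls; 2 were higher and 1 lower at an unadjusted p under 0.05, with Hpx at 1.10 and Ttr at -0.822 on the log2 scale. Of the 14 macrophage markers, 10 were higher at an unadjusted p under 0.05, 0 called by edgeR and 5 called by DESeq2, with sums of 420.3 to 626.6 CPM in AL/NP livers and 222.9 to 341.3 CPM in controls. Mpeg1, with a log2 fold change of 1.20 (adjusted p = 0.0579), and Cd5l (adjusted p = 0.0640) had the smallest p of these. Of 9 neutrophil markers 6 were tested and 5 were higher at an unadjusted p under 0.05 (0 called by edgeR, 3 by DESeq2), with sums of 35.0 to 76.4 CPM in AL/NP livers and 18.9 to 34.0 CPM in controls. Of these, S100a9 was at 1.3 and Trem1 at 2.08 on the log2 scale. Trem1 was sparse, at 0.348 to 0.609 CPM with AL/NP and 0.0552 to 0.155 CPM in controls, where 3 counts equal 0.0753 to 0.0982 CPM. Its fold change is therefore uncertain, and DESeq2 gave it no adjusted p. The sums of macrophage and neutrophil markers were highest in AL/NP replicate 3, as was the sum of the members. This was not particular to those 2 lists. Among the AL/NP libraries, the stellate and endothelial sums were also highest in replicate 3. The hepatocyte and lymphocyte sums were highest in AL/NP replicate 1 and the cholangiocyte sum in AL/NP replicate 2. Of the 9 stress and handling genes, 6 were higher and 1 lower at an unadjusted p under 0.05 (9.37% and 10.3% of all tested genes). DESeq2 called 3 higher and 1 lower (2.75% and 2.72%). The edgeR calls were Hspa1a and Hspa1b, both higher, at log2 fold changes of 2.27 and 2.43, where 0.0627% of all tested genes were called higher. Both edgeR calls were lost when any 1 library other than control replicate 1 was left out. No listed marker was at 0 in all libraries. The part of these cells and signs in the results was not tested, and in whole tissue a change in the number of cells of a type and a change in RNA per cell cannot be told apart.

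Of the other marker lists, edgeR and DESeq2 called 0 of 9 stellate, 0 of 8 endothelial and 0 of 5 tested cholangiocyte markers, and 0 of each passed at an unadjusted p under 0.05; those with the smallest p were Reln and Lrat, Pecam1 and Lyve1, and Sox9 and Epcam, at log2 fold changes between -0.560 and 0.815. The stellate sum was 259 to 610 CPM in AL/NP livers and 322 to 840 CPM in controls, highest in control replicate 3. The endothelial sum was 186 to 229 CPM in AL/NP livers and 181 to 231 CPM in controls, and the cholangiocyte sum 433 to 850 CPM in AL/NP livers and 391 to 574 CPM in controls. Of 7 tested lymphocyte markers, Cd3e was higher at an unadjusted p under 0.05 and was called by DESeq2 only, at 16.6, 2.67 and 1.22 CPM with AL/NP, against 0.718, 0.773 and 0.497 CPM in controls. Ms4a1, a B cell marker, was at -1.14 on the log2 scale.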

How the data were processed

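RNA from liver lobes was measured in 6 libraries (3 AL/NP, 3 control) by poly(A)-selected, strand-marking paired-end sequencing, per the labels. The deposited values are whole-number read counts per Ensembl gene with no normalization. The submitters' processing notes name GRCm38, STAR 2.6.1a, featureCounts and DESeq2 1.26.0; annotation release, strand setting and treatment of multi-mapping reads are not given in the sources used here. Symbols and coordinates came from GENCODE M21 (GRCm38). Totals were 30554483 to 39838428 counts; 3 counts equal 0.0753 to 0.0982 CPM, counting error only.

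Groups were compared over the whole table with edgeR 4.0.16 in R 4.3.3 (robust quasi-likelihood fit, TMM, filterByExpr with a minimum count of 10). Benjamini-Hochberg adjustment ran over 15939 genes, with calls under 0.05; the test was tested on simulated data. CPM are TMM-scaled, fold changes are AL/NP over control, with an SE taken as their size divided by the square root of F. Alternatives were DESeq2 size factors, library totals, other count filters, a replicate block, each library left out, the 10 most abundant genes left out, a fit without robust estimation, DESeq2 1.42.0 and limma-voom (limma 3.58.1). Copies of members were sought with blastn 2.17.0. No pair of libraries was closer than a chi-square of 30.6 per degree of freedom, so none was taken as a duplicate.

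The members and lists were chosen with earlier results of these data known. Genes named are the 9 members, the upstream and other late enzymes, the called genes (or, with none, the 2 with the smallest p) of every other list, and the 5 genes nearest to the median member profile; any other is said to be chosen later. Some genes that this rule names are not reported here.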

Additional observations from a re-analysis of the deposited data

How the results depend on the processing

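The log2 fold changes of Cyp51 and Msmo1 kept their direction in all 15 alternatives, between 1.48 and 1.78 and between 1.505 and 1.78, but sat close to the threshold: each was called in 6, with adjusted p from 7.67e-10 to 0.194 and from 8.80e-11 to 0.194. The calls were lost with library totals only (Cyp51 1.78, adjusted p = 0.113; Msmo1 1.73, 0.0863), with at least 50 counts in 3 libraries (1.68 and 1.597, both 0.0553), without robust estimation (1.68 and 1.6, both 0.0513) and with any library left out; the cause was not tested. Nsdhl and Hsd17b7 gained a call with no filter beyond 1 count (0.937 and 0.838) and with DESeq2 (0.938 and 0.844). Left-out libraries changed the sign of Ebp (-0.0342 without control replicate 2; range to 0.353), Sc5d (0.188 without control replicate 3; range from -0.893) and Dhcr7 (-0.0335 without control replicate 1, -0.00738 without AL/NP replicate 3; range to 0.506). With library totals the median of all genes moved to 0.133.

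Calls over the whole table, among the members and among the upstream genes were 13, 2 and 1 in the report. They were 747, 4 and 7 with no filter beyond 1 count, 878, 4 and 5 with DESeq2, and 0, 0 and 0 in edgeR with library totals only, with the 50-count filter and without robust estimation (unadjusted p under 0.05 in 2254, 2786 and 3133 genes). With a library left out they were 0 to 4, 0 to 0 and 0 to 0 (unadjusted, 2229 to 3022 genes and 4 to 7 members); DESeq2 was not run there. The SREBP list had 1 with DESeq2; the accessory list 1 without filter and 2 with DESeq2; the fatty acid list 1 without filter; sterol use 3 without filter, 3 with DESeq2 and 1 with the block. The stress list had 4 with DESeq2, 0 with library totals, the 50-count filter and no robust estimation, and 0 to 2 with a library left out.

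With the replicate number as a block, 23 genes, 2 members and 0 upstream genes were called (Idi1 1.785, adjusted p = 0.0604). Same-numbered libraries did not deviate together (r = -0.0548, 0.0427 and 0.0752 over genes), and AL/NP replicate 1 matched control replicate 2 better, at 0.0974, so the numbers were not taken to pair them.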

Other observations

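Of 9 tested genes of bile acid synthesis and sterol export, 2 were higher and 4 lower at an unadjusted p under 0.05; edgeR called 0 and DESeq2 called 1 higher and 2 lower. Abcg5, one part of the pump that sends sterols into bile, measured 15.5, 31.2 and 28.5 CPM with AL/NP, against 76.99, 76.25 and 112.7 CPM in controls (log2 fold change -1.82, SE 0.280, adjusted p = 0.0749, edgeR). Abcg8, the other part, measured 7.16, 16.5 and 13.1 CPM with AL/NP, against 40.03, 36.7 and 39.1 CPM in controls (log2 fold change -1.65, SE 0.268, adjusted p = 0.0783, edgeR). Neither gene's groups overlapped, and DESeq2 called both lower, at adjusted p of 1.99e-07 and 3.43e-06.

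Control replicate 3, which was highest for Ebp, Sc5d and Dhcr7, was also highest for other sterol and lipid genes chosen after their values were seen. Of all tested genes, 28.2% were highest and 29.1% lowest in that library. Other genes of these pathways went the other way. Control replicate 3 was the lowest of all 6 libraries for Cyp51 and Idi1, and the lowest control for Scd1. Insig1, which holds SREBP back in the endoplasmic reticulum, measured 46.1, 116 and 134.5 CPM with AL/NP, against 127.6, 105 and 393 CPM in controls. Fasn, fatty acid synthase, measured 111 CPM, 204.6 CPM and 267 CPM with AL/NP, against 224, 188 and 449 CPM in controls. Cyp7a1, the rate-limiting enzyme of bile acid synthesis, measured 0.0348, 0.0826 and 0.493 CPM with AL/NP, against 0.144, 0.470 and 8.54 CPM in controls. Its values in AL/NP replicates 1 and 2 stand for 3 counts or fewer, so they are at the floor of the measurement.

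The median member profile, in log2 CPM minus the control mean, was 0.179, 0.654 and 0.947 in AL/NP replicates 1 to 3, against -0.114, -0.00702 and -0.0400 in controls. Of 13704 other genes with at least 1 CPM, those nearest to it by root mean square difference over the 6 libraries were Mapkapk3 (0.0840), Aldoc (0.0996), Plvap (0.112), Selp (0.123) and Golph3l (0.133). None was called by edgeR, with adjusted p from 0.128 to 0.301. The nearest genes of the pathway included Fdft1, at rank 43, and Srebf2, at rank 62.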
